A study of Mus musculus with 12 samples.

Results

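The 10 genes described here encode enzymes that add or remove methyl groups on lysine 9 of histone H3 (H3K9), together with Trim28, the corepressor that brings Setdb1 to DNA. They were taken by symbol from the 23420 genes counted in each library, by a rule that uses no measured value, although earlier results of these data were known when it was written. They comprise the methyltransferase genes Setdb1, Ehmt1, Ehmt2 and Suv39h2, the corepressor gene Trim28, and the demethylase genes Kdm3a, Kdm3b, Kdm4a, Kdm4b and Kdm4c. All 10 passed the filter on low counts.

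RNA was sequenced from mouse cells of a mixed C57BL/6 and 129 background along reprogramming to pluripotency, as 12 libraries, 3 in each of 4 groups. MEF are mouse embryonic fibroblasts, the starting cells, and they were not sorted. Stage1 cells were taken on day 6, Stage2 cells 4 days later, and iPSC are established induced pluripotent stem cells. Per the series text, Stage1, Stage2 and iPSC cells had been sorted as positive for Oct4-GFP, in which the pluripotency gene Pou5f1 (Oct4) drives a fluorescent protein, so sorting and cell state cannot be told apart in any comparison with MEF. The sources used here do not give the reprogramming factors, their delivery, or whether replicates came from separate cultures or animals, and p-values therefore measure a spread between libraries that may be technical.

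Groups were taken from the library titles, and in 12 of 12 libraries the stage given among the characteristics was another one. Libraries titled Stage1 are described there as unsorted MEF, those titled Stage2 as Stage 1, those titled iPSC as Stage 2 and those titled MEF as iPSC. Summed fibroblast markers ran from 15.9 to 139.8 CPM in the 9 libraries with other titles, against 16546 to 22096 CPM in the libraries titled MEF. CPM are counts per 1000000 gene counts, here scaled between libraries as described below. Summed pluripotency markers ran from 2977 to 7487 CPM in those 9, against 4.58 to 6.15 CPM in the libraries titled MEF, with Lin28a and Fbxo15 at 0. These markers set the libraries titled MEF apart as the fibroblasts. In those titled Stage1, Stage2 and iPSC, pluripotency sums ran from 2977 to 3110, 5812 to 6248 and 6411 to 7487 CPM, without overlap. Fibroblast sums there ran from 15.9 to 24.7, 91.2 to 139.8 and 71.2 to 73.5 CPM, so the marker sets order these groups differently. Under the other naming every value below stands, and a comparison of Stage2 with Stage1 would bear the name Stage1 against MEF. The marker sums contradict that naming for the libraries titled Stage1, which it calls MEF, and for those titled MEF, which it calls iPSC. Summed macrophage markers ran from 8.57 to 30.6 CPM in the 9 later libraries, against 124 to 131 CPM in MEF, with none of the markers at 0 over a group. Summed endothelial markers ran from 19.04 to 42.0 CPM in the 9 later libraries, against 16.0 to 22.7 CPM in MEF, where Tie1 was at 0. Gene counts per library ran from 8916223 to 19011944, both in MEF, and the share of reads outside genes averaged 9.21% in MEF, 42.8% at Stage1, 49.9% at Stage2 and 38.8% in iPSC. The part of these differences in the results below was not tested.

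Methylated H3K9 marks silent chromatin. Ehmt1 and Ehmt2, also called GLP and G9a, work as a heterodimer that mono- and dimethylates H3K9 in euchromatin. Setdb1, brought by Trim28 and zinc finger proteins, trimethylates H3K9 over retrotransposons and imprinted regions, and Suv39h1 and Suv39h2 trimethylate it in pericentric heterochromatin. The Kdm3 enzymes remove mono- and dimethyl marks and the Kdm4 enzymes di- and trimethyl marks, in reactions that need oxygen, iron and 2-oxoglutarate. In mouse cells H3K9 methylation is known as a barrier to reprogramming, and Kdm3a and Kdm4c as enzymes of embryonic stem cell self-renewal.

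Sequence just upstream of the transcription start is shown for 3 genes that carry the main differences below. They are Suv39h2, with the largest log2 difference of the 10 from MEF, and Kdm4c and Kdm3a, with the largest rises at Stage2 against Stage1. The windows are the 250 bases before each start that RefSeq lists on GRCm38.p6, the assembly known as mm10, written 5′ to 3′ on the gene's strand. Capitals mark matches on either strand to the words searched for. These were CACGTG, known as the E-box, and the core of the hypoxia response element, ACGTG, which lies inside the E-box. The CCAAT box, the GC box with the word GGGCGG, and the octamer with the word ATGCAAAT, which Pou5f1 binds, were also searched. The last words, for E2F factors, were TTTCCCGC, TTTCGCGC, TTTGGCGC and TTTGCCGC. Suv39h2 has 1 listed start, on chromosome 2, and the window is chr2:3474987-3475236 on the minus strand. Kdm3a has 3 starts in the RefSeq promoter table, and the window shown, chr6:71632918-71633167 on the minus strand, belongs to the one furthest upstream, which lies just inside the end of the gene span given below. Kdm4c has 2 listed starts on the plus strand of chromosome 4, with windows chr4:74242247-74242496 and chr4:74251629-74251878.
Suv39h2: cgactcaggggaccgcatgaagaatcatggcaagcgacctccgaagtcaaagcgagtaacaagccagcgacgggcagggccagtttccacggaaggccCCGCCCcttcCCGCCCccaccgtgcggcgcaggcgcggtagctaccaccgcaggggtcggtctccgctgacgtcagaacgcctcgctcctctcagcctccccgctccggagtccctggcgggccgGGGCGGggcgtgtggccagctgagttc
Kdm3a: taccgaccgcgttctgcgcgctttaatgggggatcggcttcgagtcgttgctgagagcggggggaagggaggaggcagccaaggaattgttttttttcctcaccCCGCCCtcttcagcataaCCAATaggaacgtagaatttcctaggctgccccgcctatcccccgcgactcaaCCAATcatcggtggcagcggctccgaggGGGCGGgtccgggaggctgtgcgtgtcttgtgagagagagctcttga
Kdm4c, upstream start: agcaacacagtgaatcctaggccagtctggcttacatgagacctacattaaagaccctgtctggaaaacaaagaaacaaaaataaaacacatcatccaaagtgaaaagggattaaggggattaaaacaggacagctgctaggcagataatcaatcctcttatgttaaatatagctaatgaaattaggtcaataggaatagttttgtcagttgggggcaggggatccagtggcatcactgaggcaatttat
Kdm4c, downstream start: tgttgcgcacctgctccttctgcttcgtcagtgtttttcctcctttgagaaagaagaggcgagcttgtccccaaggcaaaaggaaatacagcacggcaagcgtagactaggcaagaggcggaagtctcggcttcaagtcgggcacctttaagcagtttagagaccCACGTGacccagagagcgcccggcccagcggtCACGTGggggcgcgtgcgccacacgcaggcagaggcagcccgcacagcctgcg

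The Suv39h2 window held 3 GC boxes, at -152, -142 and -27 from the start. That of Kdm3a held 2 CCAAT boxes, at -128 and -75, and 2 GC boxes, at -146 and -47. No word was found upstream of the first Kdm4c start, and 2 E-boxes lay before the second, at -85 and -53. The bases just after this second RefSeq start are in no Kdm4c transcript of GENCODE M21, whose nearest start lies 57 bases further downstream. For the other 11 windows such a transcript was found. The downstream Kdm4c window had 60.4% G and C, against 39.6% in the upstream one. Among all 32851 RefSeq promoter windows of this length, 6.02% held an E-box, 16.6% the hypoxia core, 33.8% a CCAAT box, 32.7% a GC box, 1.60% the octamer and 1.86% an E2F word. Windows were searched for 8 of the 10 genes, over 12 starts, and not for Kdm3b and Kdm4b. Of the others, Ehmt2 held E-boxes before both of its starts, 2 before its first and 1 before its second. Trim28 held the hypoxia core at -186, outside an E-box. GC boxes were also found before Setdb1, Ehmt1, Ehmt2, Trim28 and the second Kdm3a start, and CCAAT boxes before Setdb1 and Kdm4a. The octamer and E2F words were found in none of the 12 windows. A match describes letters only, and gene counts do not tell the starts of a gene apart.

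Levels are given as CPM scaled by trimmed mean of M values (TMM), and log2 fold changes with their standard error (SE) come from edgeR's quasi-likelihood test over all 4 groups. A gene was called higher or lower at a Benjamini-Hochberg adjusted p below 0.05 over the 14770 genes tested. In bulk RNA, fewer cells with a transcript and less of it per cell cannot be told apart.

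Of the 10 genes, 9 were called higher at Stage1 than in MEF and 0 lower, where 44.2% of all tested genes were called higher and 36.1% lower. Their median log2 difference was 1.49, against 0.27 over all tested genes. Suv39h2 rose most, 24.5-fold, followed by Setdb1, Kdm3b, Kdm4c and Trim28, each more than 3-fold higher. The smallest called differences were those of Ehmt2 and Kdm4b. Kdm4a, the demethylase gene with the least difference, was 1.13-fold higher and was not called (adjusted p = 0.305).

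At Stage2, 3 of the 10 genes were called higher than at Stage1 and 1 lower, where 20.6% of all tested genes were called higher and 19.8% lower. Called higher were the demethylase genes Kdm3a, Kdm4b and Kdm4c, while the demethylase genes Kdm3b and Kdm4a were not called. Called lower was Suv39h2, while the methyltransferase genes Setdb1, Ehmt1 and Ehmt2 were not called. With library totals the counts were 4 higher and 0 lower, since Trim28 was added and Suv39h2 lost. Of all 14770 genes, 4026 were called higher and 1678 lower with library totals. With only those groups fitted the 10 genes gave 4 and 2, and all 13446 tested genes gave 3860 and 3551. Without Stage1 replicate 3 or Stage2 replicate 1 the 10 genes gave 3 and 0. There 2366 of 15373 and 2468 of 15335 tested genes were called lower. Without MEF replicate 2 or 3 the 10 genes gave 3 and 2, where 3091 of 15256 and 3471 of 15220 tested genes were called lower. The median log2 difference of the 10 genes was 0.01, against 0.02 over all tested genes. In iPSC, 2 of the 10 genes were called lower than at Stage2, Kdm3a and Kdm3b, where 8.87% of all tested genes were called lower. None was called higher, where 9.21% of all tested genes were, and at an unadjusted p below 0.05 Suv39h2 was higher (unadjusted p = 0.0281, adjusted p = 0.107). DESeq2 also called 0 of the 10 genes higher and 2 lower, where 1455 and 1815 of 14733 tested genes were. The median log2 difference of the 10 genes was -0.12, against 0.04 over all tested genes.

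Against MEF, the same count of 9 genes was called higher at Stage2 and in iPSC, with Kdm4a the exception each time, where 44.6% of all tested genes were called higher at Stage2 and 44.9% in iPSC. None of the 10 genes was called lower, where 36.4% of all tested genes were at Stage2 and 35.8% in iPSC. All 10 genes, Kdm4a among them, had log2 fold changes above 0 in each comparison with MEF, and DESeq2 called 9 higher and 0 lower in each. DESeq2 called 7908 of 19109 tested genes higher at Stage1, 8428 of 19109 at Stage2 and 8018 of 18672 in iPSC. It called 5435, 5348 and 5396 lower. Between iPSC and Stage1, Kdm3a and Kdm4c were called higher and Ehmt1 and Kdm3b lower, where 21.3% of all tested genes were called higher and 18.1% lower. The comparisons with MEF share the MEF libraries, and those between successive stages share the stage in the middle.

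**Figure D1:**
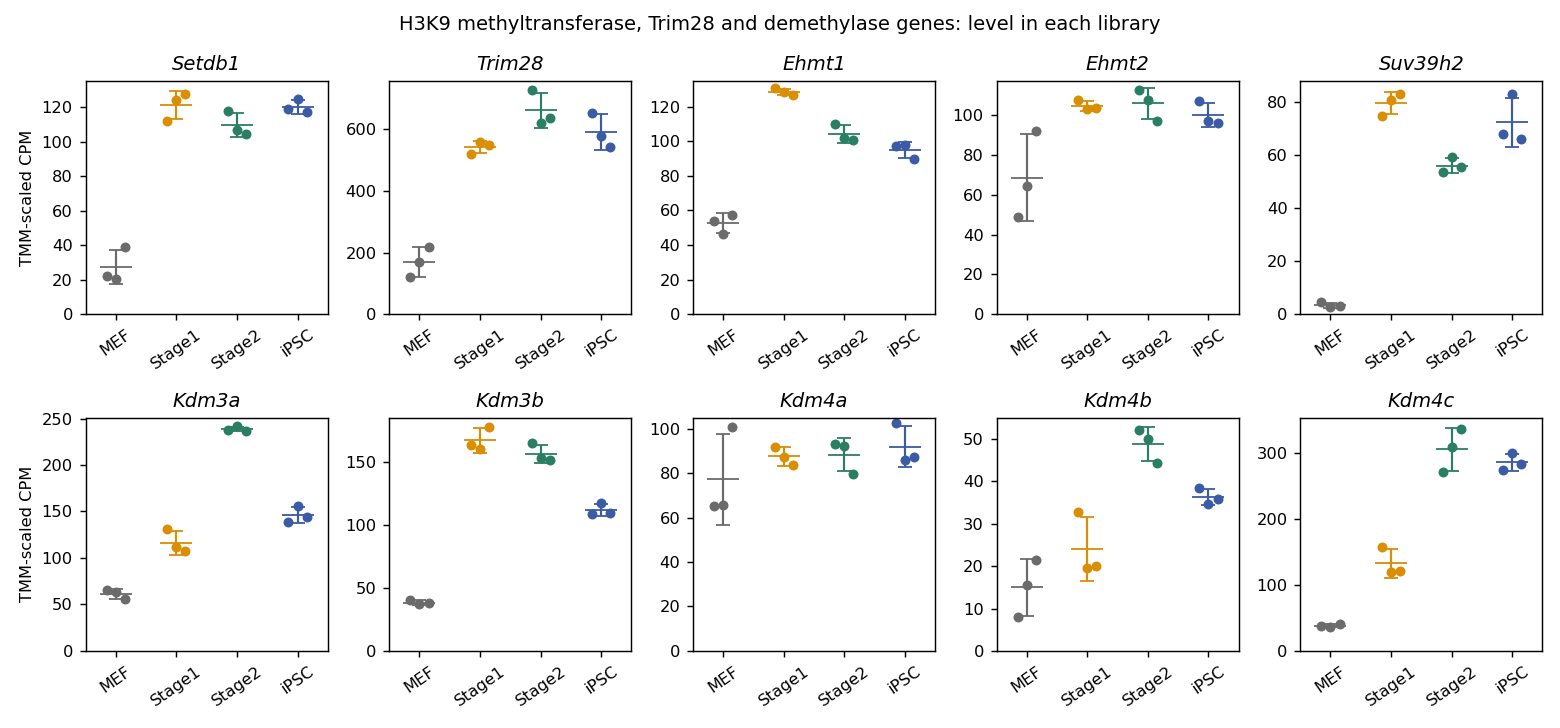
TMM-scaled CPM (vertical axis, from 0) of the 10 genes in each of 12 libraries by group along reprogramming; points are libraries, and the horizontal bar and whiskers are the mean and SD of 3. Suv39h2 stood between 53.6 and 83.4 CPM in the later groups, against 2.67 to 4.51 CPM in MEF, Kdm3a peaked at Stage2, and Kdm4a overlapped between all groups.

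Setdb1, the trimethylating enzyme of the Trim28 pathway, lies on chromosome 3 (positions 95323525 to 95357202, minus strand). It had 22.4, 20.6 and 38.9 CPM in MEF, 112, 124 and 128 CPM at Stage1, 118, 107 and 104 CPM at Stage2, and 119, 125 and 117 CPM in iPSC. MEF stood apart below every other library, with its replicate 3 highest of the 3, and the other groups overlapped. The log2 fold change was 2.14 ± 0.19 at Stage1 against MEF (SE, adjusted p = 9.58e-09, n = 3 each, edgeR). It was -0.15 ± 0.18 at Stage2 against Stage1 (adjusted p = 0.542) and 0.13 ± 0.18 in iPSC against Stage2 (adjusted p = 0.647). Of its exon bases, 6.95% are shared with genes on the opposite strand, Cers2 and Gm37500, and the sources used here do not say whether counting used strand.

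Trim28, also called KAP1 or TIF1-beta, is the scaffold that binds the KRAB domain of zinc finger proteins and lies on chromosome 7 (positions 13024152 to 13031032, plus strand). Its libraries had 119.7, 169.9 and 217 CPM in MEF, 520.4, 558 and 548 CPM at Stage1, 726, 622 and 636 CPM at Stage2, and 654, 579.6 and 541 CPM in iPSC. No MEF library reached the lowest of the others. The step to Stage1 was a log2 fold change of 1.68 ± 0.17 against MEF (SE, adjusted p = 7.17e-08). All 3 Stage2 libraries were above all 3 Stage1 libraries, and the log2 fold change of 0.29 ± 0.17 was not called (adjusted p = 0.184). It was called when library totals replaced TMM (0.49, adjusted p = 0.0243) and when only those groups were fitted (0.33, adjusted p = 0.00781). Per kilobase of exon, Trim28 had the highest level of the 10 genes in every group, with 52.0 ± 14.9 CPM per kb in MEF, 167 ± 5.96 at Stage1, 204 ± 17.4 at Stage2 and 182 ± 17.8 in iPSC (SD, n = 3 each).

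The heterodimer partners Ehmt1 and Ehmt2 lie on chromosome 2 (positions 24790769 to 24919643, minus strand) and chromosome 17 (positions 34898463 to 34914073, plus strand). Ehmt1 had 53.7, 46.4 and 57.6 CPM in MEF, 131, 128 and 127 CPM at Stage1, 109.9, 102 and 101 CPM at Stage2, and 97.3, 97.8 and 89.6 CPM in iPSC. Its groups did not overlap at all, with Stage1 highest, then Stage2, then iPSC, then MEF. Against MEF, Ehmt1 was 1.29 ± 0.12 higher at Stage1 on the log2 scale (SE, adjusted p = 2.81e-08) and 0.85 ± 0.12 higher in iPSC (adjusted p = 5.31e-06). In iPSC it was lower than at Stage1 by a log2 fold change of -0.44 ± 0.12 (adjusted p = 0.00814). Neither neighbouring step was called, with -0.30 ± 0.12 at Stage2 against Stage1 (adjusted p = 0.0531) and -0.13 ± 0.12 in iPSC against Stage2 (adjusted p = 0.476). The step at Stage2 was called in a fit of those groups alone (-0.26, adjusted p = 0.0242), and without MEF replicate 2 or 3.

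Ehmt2 had 48.8, 64.6 and 92.0 CPM in MEF, 107, 103 and 103 CPM at Stage1, 113, 108 and 97.3 CPM at Stage2, and 107, 97.0 and 96.3 CPM in iPSC. MEF replicate 3 came close to the other groups, which overlapped one another. The log2 fold change was 0.61 ± 0.17 at Stage1 against MEF (SE, adjusted p = 0.00375) and 0.54 ± 0.17 in iPSC against MEF (adjusted p = 0.00785). The second call was lost without MEF replicate 1, where the difference was 0.33 (adjusted p = 0.0560). Between successive stages after MEF, the values were 0.02 ± 0.17 at Stage2 against Stage1 (adjusted p = 0.946) and -0.08 ± 0.17 in iPSC against Stage2 (adjusted p = 0.782). The ratio of Ehmt1 to Ehmt2 in CPM per kb was 0.758, 0.495 and 0.432 in MEF and 0.838, 0.859 and 0.846 at Stage1. It was 0.671, 0.652 and 0.714 at Stage2 and 0.627, 0.694 and 0.641 in iPSC. Ehmt2 was thus the higher of the pair per length in all 12 libraries, with the ratio closest to 1 at Stage1.

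Suv39h2, a trimethylating enzyme of heterochromatin known for its level in mouse testis, had the lowest level of the 10 genes per kilobase of exon in MEF and lies on chromosome 2 (positions 3455815 to 3474986, minus strand). It had 4.51, 2.67 and 2.95 CPM in MEF, 75.04, 80.8 and 83.4 CPM at Stage1, 53.6, 59.4 and 55.4 CPM at Stage2, and 68.1, 83.1 and 66.2 CPM in iPSC. Stage2 lay below both Stage1 and iPSC without overlap, and Stage1 and iPSC overlapped. At Stage1 the log2 fold change against MEF was 4.61 ± 0.19 (SE, adjusted p = 4.6e-13), and in iPSC against MEF it was 4.48 ± 0.19 (adjusted p = 7.03e-13). At Stage2 against Stage1 it was -0.51 ± 0.15 (adjusted p = 0.0144). That call was lost with library totals (-0.30, adjusted p = 0.145), without Stage1 replicate 3 (-0.49, adjusted p = 0.0518) and without Stage2 replicate 1 (-0.49, adjusted p = 0.0505). In iPSC it was 0.37 ± 0.15 higher than at Stage2 on the log2 scale and was not called (adjusted p = 0.107), except in a fit of those groups alone (0.32, adjusted p = 0.0315). Of its exon bases, 8.25% are shared with Dclre1c on the opposite strand.

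Its partner gene Suv39h1, on the X chromosome, moved with a smaller range. Suv39h1 had 15.03, 17.98 and 21.3 CPM in MEF, 47.3, 44.8 and 41.8 CPM at Stage1, 21.0, 26.8 and 27.0 CPM at Stage2, and 41.1, 41.3 and 43.5 CPM in iPSC. Its dip at Stage2 was called on both sides, with a log2 fold change of -0.84 ± 0.16 at Stage2 against Stage1 (SE, adjusted p = 0.000619) and 0.75 ± 0.16 in iPSC against Stage2 (adjusted p = 0.00532). The ratio of Suv39h2 to Suv39h1 in CPM per kb averaged 0.225 ± 0.104 in MEF, 2.06 ± 0.235 at Stage1, 2.61 ± 0.293 at Stage2 and 1.99 ± 0.290 in iPSC (SD, n = 3 each). Suv39h2 was thus the higher of the pair in every later library, and Suv39h1 in MEF. With the longest RefSeq transcript as length in place of all exon bases, the ratios were 0.141 in MEF, 1.29 at Stage1, 1.64 at Stage2 and 1.25 in iPSC. Summed proliferation markers ran from 5051 to 6254 CPM in the 9 libraries of Stage1, Stage2 and iPSC, against 648 to 725 CPM in MEF. All 10 of these markers were called higher at Stage1 than in MEF, where 44.2% of all tested genes were. At Stage2, 4 were called lower than at Stage1 and 6 were not called, where 19.8% of all tested genes were called lower. The part of these markers in the level of Suv39h2 was not tested.

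**Figure D2:**
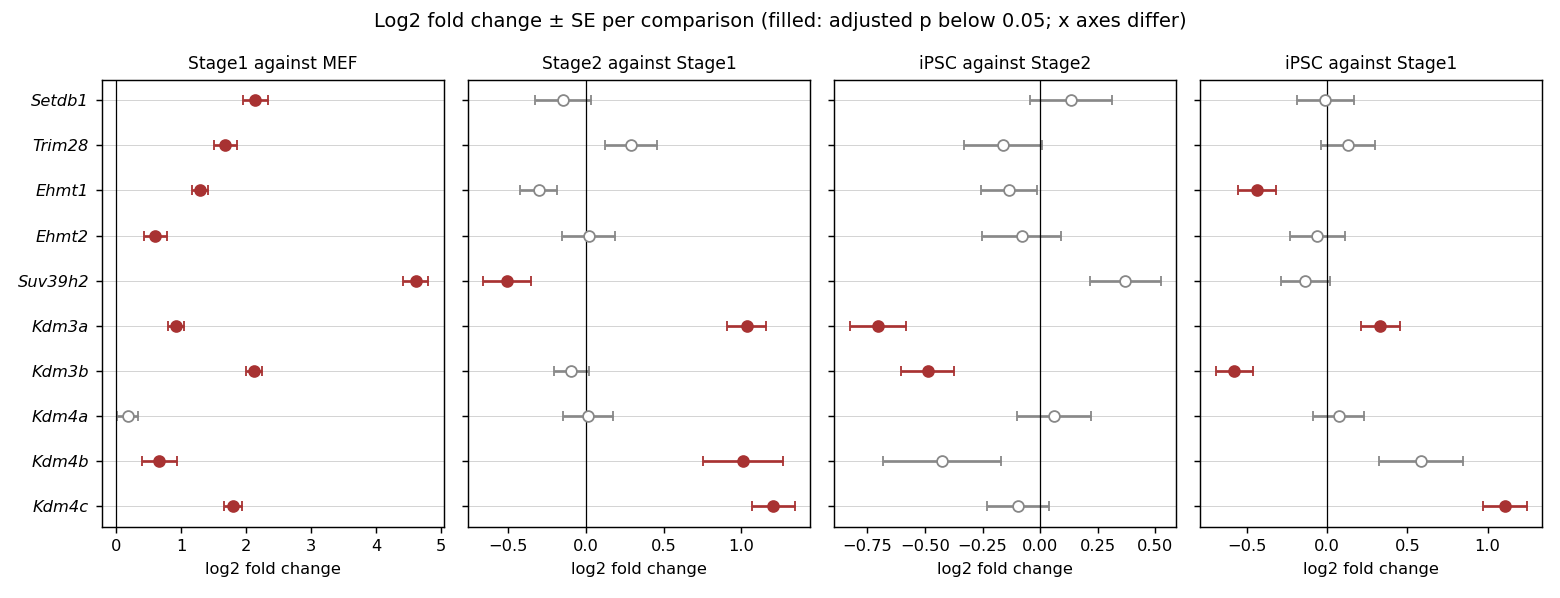
Log2 fold change with its SE (horizontal axis, a different range in each panel) of the 10 genes in 4 comparisons, with filled red points for an adjusted p below 0.05 and open grey points for the rest. The first panel has 9 filled points, all right of 0 and led by Suv39h2 at 4.61, and the second has Kdm3a, Kdm4b and Kdm4c to the right and Suv39h2 to the left.

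Among the demethylase genes, Kdm3a and Kdm3b encode related enzymes that act on mono- and dimethylated H3K9. Kdm3a, also called Jmjd1a, lies on chromosome 6 (positions 71588970 to 71632990, minus strand) and is a known target of hypoxia-inducible factor. It had 65.0, 63.5 and 55.5 CPM in MEF, 131, 111 and 107 CPM at Stage1, 237, 242 and 237 CPM at Stage2, and 139, 156 and 144 CPM in iPSC. No groups overlapped, and the order from low to high was MEF, Stage1, iPSC and Stage2. Each step was called, at 0.93 ± 0.12 for Stage1 against MEF (log2, SE, adjusted p = 2.31e-06), 1.03 ± 0.12 for Stage2 against Stage1 (adjusted p = 5.67e-06) and -0.70 ± 0.12 for iPSC against Stage2 (adjusted p = 0.00123). That made Kdm3a 2.05-fold higher at Stage2 than at Stage1, and 1.63-fold lower in iPSC than at Stage2. The difference of 0.33 ± 0.12 between iPSC and Stage1 (adjusted p = 0.0411) was lost in 10 of 19 alternatives, among them leaving out any replicate of Stage2 or iPSC, or Stage1 replicate 2 or 3, where the adjusted p reached 0.168.

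Kdm3b had 40.3, 37.1 and 37.8 CPM in MEF, 164, 160.2 and 178 CPM at Stage1, 165, 154 and 152 CPM at Stage2, and 109, 118 and 109.6 CPM in iPSC. It lies on chromosome 18 (positions 34777008 to 34839370, plus strand). Stage1 and Stage2 overlapped at the top, iPSC stood between them and MEF, and MEF was lowest without overlap. Kdm3b rose with a log2 fold change of 2.13 ± 0.12 at Stage1 against MEF (SE, adjusted p = 2.4e-11) and was not called at Stage2 against Stage1 (-0.09 ± 0.11, adjusted p = 0.543). In iPSC it was lower than at Stage2 by a log2 fold change of -0.49 ± 0.11 (adjusted p = 0.00845) and lower than at Stage1 by -0.58 ± 0.11 (adjusted p = 0.000648). Leaving out Stage2 replicate 1 (-0.43, adjusted p = 0.0561) or iPSC replicate 1 (-0.44, adjusted p = 0.0582) ended the call against Stage2. The count called lower in iPSC was then 1, Kdm3a, where 658 of 15335 and 568 of 15334 tested genes were called lower.

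The proportion of Kdm3a to Kdm3b differed between the groups. The ratio of Kdm3a to Kdm3b in CPM per kb averaged 2.22 ± 0.172 in MEF, 0.969 ± 0.139 at Stage1, 2.11 ± 0.103 at Stage2 and 1.82 ± 0.0343 in iPSC (SD, n = 3 each). At Stage1 its 3 values were 1.11, 0.964 and 0.833, all below the lowest value of any other group, 1.78 in iPSC. At Stage2 the level of Kdm3a per length was 47.7 ± 0.505 CPM per kb, against 23.3 ± 2.56 at Stage1. That of Kdm3b was 22.6 ± 1.02 CPM per kb at Stage2, against 24.1 ± 1.39 at Stage1.

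**Figure D3:**
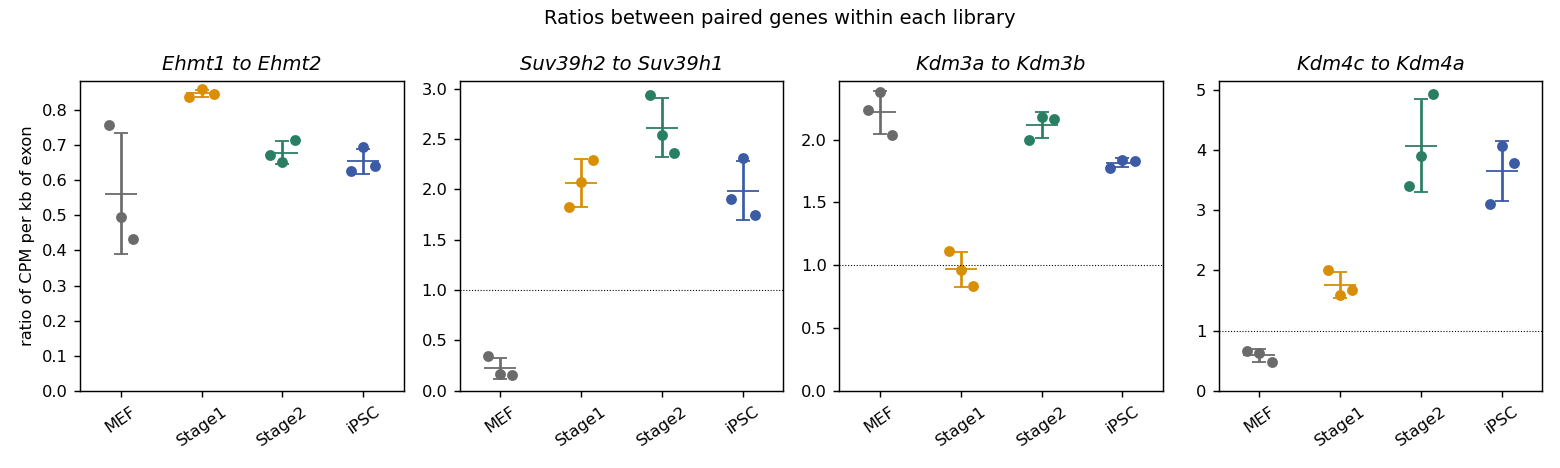
Ratio of CPM per kb of exon between paired genes (vertical axes, from 0) in each library by group; points are libraries, bars and whiskers the mean and SD of 3, and the dotted line marks 1 where it is drawn. Suv39h2 to Suv39h1 averaged 1.99 or more in the later groups, against 0.225 in MEF, Kdm3a to Kdm3b was lowest at Stage1 (0.969), and Kdm4c to Kdm4a was 4.07 at Stage2, against 0.593 in MEF.

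The Kdm4 enzymes, which act on trimethylated H3K9 and in part on H3K36, split into a gene with little movement and 2 that rose. Kdm4a, on chromosome 4 (positions 118136957 to 118180090, minus strand), had 65.0, 65.8 and 101 CPM in MEF, 91.8, 87.2 and 83.6 CPM at Stage1, 92.9, 92.4 and 79.6 CPM at Stage2, and 103, 85.9 and 87.3 CPM in iPSC. All 4 groups overlapped, through MEF replicate 3, which was above 8 of the 9 other libraries. Kdm4a was called in none of 6 comparisons, with log2 fold changes between 0.01 and 0.25 and an SE of 0.16. Without MEF replicate 3 it was called higher than MEF in 3 comparisons, by 0.43 at Stage1 (adjusted p = 0.00629), 0.43 at Stage2 (adjusted p = 0.00532) and 0.50 in iPSC (adjusted p = 0.00206). With library totals in place of TMM it was also called at Stage2 (0.57, adjusted p = 0.00411) and in iPSC (0.53, adjusted p = 0.00674) against MEF.

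Kdm4b, a second demethylase gene known to respond to hypoxia, lies on chromosome 17 (positions 56325970 to 56403774, plus strand). It had 7.89, 15.6 and 21.5 CPM in MEF, 32.9, 19.7 and 19.9 CPM at Stage1, 52.1, 49.9 and 44.4 CPM at Stage2, and 38.5, 34.8 and 35.7 CPM in iPSC. MEF and Stage1 overlapped, and Stage2 was above every library of the other groups. At Stage2 against Stage1 the log2 fold change was 1.01 ± 0.26 (SE, adjusted p = 0.00506). The difference of 0.67 ± 0.27 at Stage1 against MEF (adjusted p = 0.0283) was lost in a fit of those groups alone (0.62, adjusted p = 0.113), without MEF replicate 1 (0.37, adjusted p = 0.130), without MEF replicate 2 (0.67, adjusted p = 0.0596) and without Stage1 replicate 1 (0.38, adjusted p = 0.202). In iPSC, Kdm4b was 1.25 ± 0.27 higher than in MEF on the log2 scale (adjusted p = 0.000322). Its values of -0.43 ± 0.26 against Stage2 (adjusted p = 0.266) and 0.58 ± 0.26 against Stage1 (adjusted p = 0.0843) were not called. Both were called in fits of only the groups compared (-0.47, adjusted p = 0.00328, and 0.61, adjusted p = 0.0128).

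Kdm4c, also called Jmjd2c and known as a target of Pou5f1 in mouse embryonic stem cells, lies on chromosome 4 (positions 74242497 to 74405864, plus strand). It had 37.3, 36.0 and 40.8 CPM in MEF, 158, 119 and 121 CPM at Stage1, 271, 309 and 336 CPM at Stage2, and 274, 299 and 284 CPM in iPSC. Stage2 and iPSC overlapped at the top, Stage1 stood in between, and MEF was lowest. The log2 fold change was 1.80 ± 0.14 at Stage1 against MEF (SE, adjusted p = 2.06e-09) and 1.21 ± 0.14 at Stage2 against Stage1 (adjusted p = 3.29e-06). At iPSC against Stage2 it was -0.10 ± 0.13 (adjusted p = 0.658), with an 8.04-fold difference of Stage2 from MEF and a 7.51-fold difference of iPSC from MEF. At Stage2 Kdm4c thus overlapped its iPSC range, where Kdm3a stood above its own.

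The makeup of the 3 Kdm4 transcripts per length shifted along the series. Kdm4c made up 32.8% ± 4.76 of their summed CPM per kb in MEF, 57.3% ± 1.495 at Stage1, 71.3% ± 3.79 at Stage2 and 71.6% ± 2.58 in iPSC (SD, n = 3 each). The share of Kdm4a was 55.6% ± 2.92 in MEF, 32.9% ± 3.05 at Stage1, 17.8% ± 2.34 at Stage2 and 19.8% ± 2.07 in iPSC. Kdm4b kept between 7.44% and 13.8% in all libraries. Kdm4d, a further gene of the family, did not pass the filter and had at most 0.968 CPM in any library.

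By level per kilobase of exon, the order of the 10 genes was itself different between groups. Behind Trim28, MEF had Ehmt2 (16.6 CPM per kb), Kdm4a (15.3) and Kdm3a (12.2) at the top and Kdm4b (3.27) and Suv39h2 (0.781) at the bottom. At Stage1 Kdm4c had 30.5 ± 5.07 CPM per kb and Setdb1 26.0 ± 1.77, Ehmt2 25.4 ± 0.602 and Kdm3b 24.1 ± 1.39. The ranges of Setdb1, Ehmt2 and Kdm3b overlapped there, and that of Kdm4c overlapped only the range of Setdb1. With the longest RefSeq transcript as length, Kdm4c at Stage1 began at 28.3 CPM per kb, above Kdm3b (up to 28.0) and Setdb1 (up to 27.4). By that length the mean of Kdm3b (26.3) ranked above that of Setdb1 (26.1). In iPSC, Kdm4c (65.8 CPM per kb), Kdm3a (29.3) and Setdb1 (25.8) followed Trim28, and Kdm4b (7.94) was lowest.

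For each gene, the profile most like its own was sought among 9997 genes with a mean of at least 5 CPM, as the root mean square distance between mean-centred log2 CPM over 12 libraries. The closest were Snrnp200 for Setdb1 (0.0951), Neurl4 for Ehmt1 (0.0884), Grk6 for Ehmt2 (0.105), Kif20b for Suv39h2 (0.142) and Atmin for Trim28 (0.143). For the demethylase genes they were Pias2 for Kdm3a (0.155), Zbtb11 for Kdm3b (0.104), Rabep2 for Kdm4a (0.0897), Pcx for Kdm4b (0.223) and Arrdc3 for Kdm4c (0.157). The second closest were Uaca, Nup153, Cabin1, Dnajc21 and Wbscr27 for the first 5 genes and Myo6, Zfp605, Anapc5, Pfkl and Mybl1 for the demethylase genes. As an example of such a match, Kif20b averaged 26.5 CPM in MEF, 548 at Stage1, 428 at Stage2 and 475 in iPSC. Within the set, Ehmt2 and Kdm4a were nearest to each other (0.203), followed by Setdb1 and Trim28 (0.253). The points share 12 libraries, so these distances describe likeness over the same samples.

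The other genes of the pathway were read from lists of methyltransferases, demethylases, partners, readers and zinc finger proteins. Of 5 other H3K9 methyltransferase genes, 3 were called higher at Stage1 than in MEF and 1 lower, against the 44.2% and 36.1% of all tested genes. Setdb2 rose (1.97 ± 0.18, adjusted p = 1.36e-08) and Mecom fell (-3.77 ± 0.45, adjusted p = 4.65e-07). At Stage2 against Stage1, 1 was called higher, Prdm16 (2.29 ± 0.35, adjusted p = 7.55e-05), and 1 lower, Suv39h1, against 20.6% and 19.8% of all tested genes. In iPSC against Stage2, 1 was called higher, Suv39h1, and 1 lower, Prdm2 (-0.47 ± 0.15, adjusted p = 0.0433), against 9.21% and 8.87% of all tested genes. The call of Prdm2 was lost in 11 of 19 alternatives, among them leaving out any of the 9 libraries of Stage1, Stage2 and iPSC (adjusted p up to 0.162).

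Of 7 other demethylase genes, 6 were tested, and 3 were called higher and 2 lower at Stage1 than in MEF, against 44.2% and 36.1% of all tested genes. Jmjd1c, a further Kdm3 gene, rose by 2.24 ± 0.16 (log2, SE, adjusted p = 5.8e-10), and Phf2 fell, at -1.64 ± 0.27 (adjusted p = 2.06e-05). The other one called lower, Phf8, lost its call with library totals and without MEF replicate 3 or Stage1 replicate 2 or 3 (adjusted p up to 0.181). At Stage2, 3 were called higher than at Stage1 and 1 lower, against 20.6% and 19.8% of all tested genes. Jhdm1d, now called Kdm7a, rose most (1.52 ± 0.13, adjusted p = 1.61e-07), with 114, 114 and 113 CPM at Stage2, against 44.2, 37.3 and 37.4 CPM at Stage1. The other 2 higher ones, Kdm1a and Phf8, were both lost without Stage1 replicate 3 (adjusted p = 0.0668 and 0.132), which left 1. The lower one, Jmjd1c (-0.46 ± 0.15, adjusted p = 0.0225), was lost with library totals and without Stage1 replicate 1 or Stage2 replicate 2 or 3 (adjusted p up to 0.215). In iPSC, 1 was called higher than at Stage2 and 1 lower, against 9.21% and 8.87% of all tested genes. The lower one was Jhdm1d (-0.42 ± 0.13, adjusted p = 0.0328), whose call was lost in 9 of 19 alternatives, among them leaving out any Stage2 or iPSC library or Stage1 replicate 2 or 3 (adjusted p up to 0.186). The higher one was Kdm1a, the demethylase LSD1, which removes mono- and dimethyl marks from H3K4 and in some complexes from H3K9. Kdm1a had 406, 401 and 405 CPM in iPSC, against 271, 276 and 279 CPM at Stage2 (0.55 ± 0.11, adjusted p = 0.00404).

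Among 11 genes for partners of Setdb1 and of Ehmt1 and Ehmt2 and for the HUSH complex, which works with Setdb1 to silence transposons, 8 were called higher at Stage1 than in MEF and the other 3, Wiz, Pphln1 and Mbd1, were not called, where 44.2% of all tested genes were called higher. Mphosph8, the chromodomain subunit of HUSH, rose by 2.70 ± 0.19 (adjusted p = 5.06e-10), and Atf7ip2, a relative of the Setdb1 cofactor Atf7ip, rose by 5.57 ± 0.34 (adjusted p = 6.64e-11). At Stage2, 1 was called higher than at Stage1 and 3 lower, against 20.6% and 19.8% of all tested genes. Of the 3, Cdyl (-0.36 ± 0.14, adjusted p = 0.0476) was lost in 13 of 19 alternatives. The count called lower was 5 without MEF replicate 3 or with only those groups fitted. In these fits 3471 of 15220 and 3551 of 13446 tested genes were called lower. The genes of the HUSH subunits D14Abb1e and Pphln1 went opposite ways at Stage2 against Stage1. D14Abb1e, now called Tasor, had 422, 441 and 435 CPM at Stage2, against 151, 174 and 201 CPM at Stage1 (1.30 ± 0.16, adjusted p = 5.79e-06). Pphln1 had a mean of 27.1 CPM at Stage2 and of 63.0 CPM at Stage1 (-1.22 ± 0.14, adjusted p = 3.55e-06). In iPSC, 4 were called lower than at Stage2, where 8.87% of all tested genes were, and D14Abb1e (-0.87 ± 0.15, adjusted p = 0.00141) and Atf7ip (-0.89 ± 0.15, adjusted p = 0.000923) kept their calls in every alternative. The other 2, Wiz and Smarcad1, were lost in 9 and 7 of 19 alternatives. Both were lost without any one of Stage1 replicates 2 and 3, the 3 Stage2 libraries and iPSC replicates 1 and 3, which left 2 genes (adjusted p up to 0.190 for Wiz and 0.179 for Smarcad1). With only those groups fitted, 7 were called lower, where 2647 of all 13733 genes tested in that fit were.

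Of 8 genes for readers of methylated H3K9 and their partners, 7 were called higher at Stage1 than in MEF, where 44.2% of all tested genes were. They included the HP1 genes Cbx1 (2.83 ± 0.17, adjusted p = 6.03e-11), Cbx3 (2.55 ± 0.14, adjusted p = 1.71e-11) and Cbx5 (2.03 ± 0.13, adjusted p = 1.3e-10). Uhrf1, which couples H3K9 methylation to maintenance of DNA methylation, rose most (4.89 ± 0.21, adjusted p = 5.41e-13), and its Stage1 libraries had 569, 592 and 594 CPM, against MEF libraries with 14.1, 16.8 and 27.5 CPM. At Stage2, 1 was called higher than at Stage1, Cdyl2 (2.46 ± 0.14, adjusted p = 1.75e-09), and 4 lower, among them Atrx (-0.88 ± 0.18, adjusted p = 0.00088), against 20.6% and 19.8% of all tested genes. With library totals Atrx was the only one of the 4 still called lower, where 1678 of 14770 tested genes were. In iPSC, 1 was called higher than at Stage2, Lrwd1 (0.76 ± 0.19, adjusted p = 0.0117), and 1 lower, Cdyl2 (-0.96 ± 0.13, adjusted p = 0.000214), against 9.21% and 8.87% of all tested genes. Lrwd1 was lost without Stage2 replicate 3 or iPSC replicate 1 (adjusted p up to 0.0625).

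All 9 zinc finger genes of the list, which are known partners of Trim28 or pluripotency-linked relatives (Zfp42, which has no KRAB domain), were called higher at Stage1 than in MEF, where 44.2% of all tested genes were. Of the exon bases of Zfp708, 96.4% are shared with Gm28557 and Rslcan18 on the same strand, so its counts can hardly be told from theirs. Zfp57, which guides Trim28 to imprinted regions, had 235, 293 and 273 CPM in the Stage1 libraries, against 16.8, 17.6 and 22.2 CPM in those of MEF (3.82 ± 0.16, adjusted p = 6.5e-13). At Stage2, 3 were called higher than at Stage1 and 2 lower, against 20.6% and 19.8% of all tested genes. Zfp809, which recruits Trim28 to retroviral sequences, had a mean of 30.8 CPM at Stage2 and of 68.2 CPM at Stage1 (-1.15 ± 0.16, adjusted p = 3.29e-05), and the other lower gene, Zfp568, was lost with library totals (adjusted p = 0.0877). In iPSC, 2 were called lower than at Stage2, Zfp445 (-0.71 ± 0.14, adjusted p = 0.00247) and Zfp57 (-0.53 ± 0.14, adjusted p = 0.0183), and 7 were not called, where 8.87% of all tested genes were called lower. With only those groups fitted, 5 were called lower, where 2647 of all 13733 genes tested in that fit were. The call of Zfp57 was lost without Stage2 replicate 1 or 2 or iPSC replicate 1 or 3 (adjusted p up to 0.102).

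**Figure D4:**
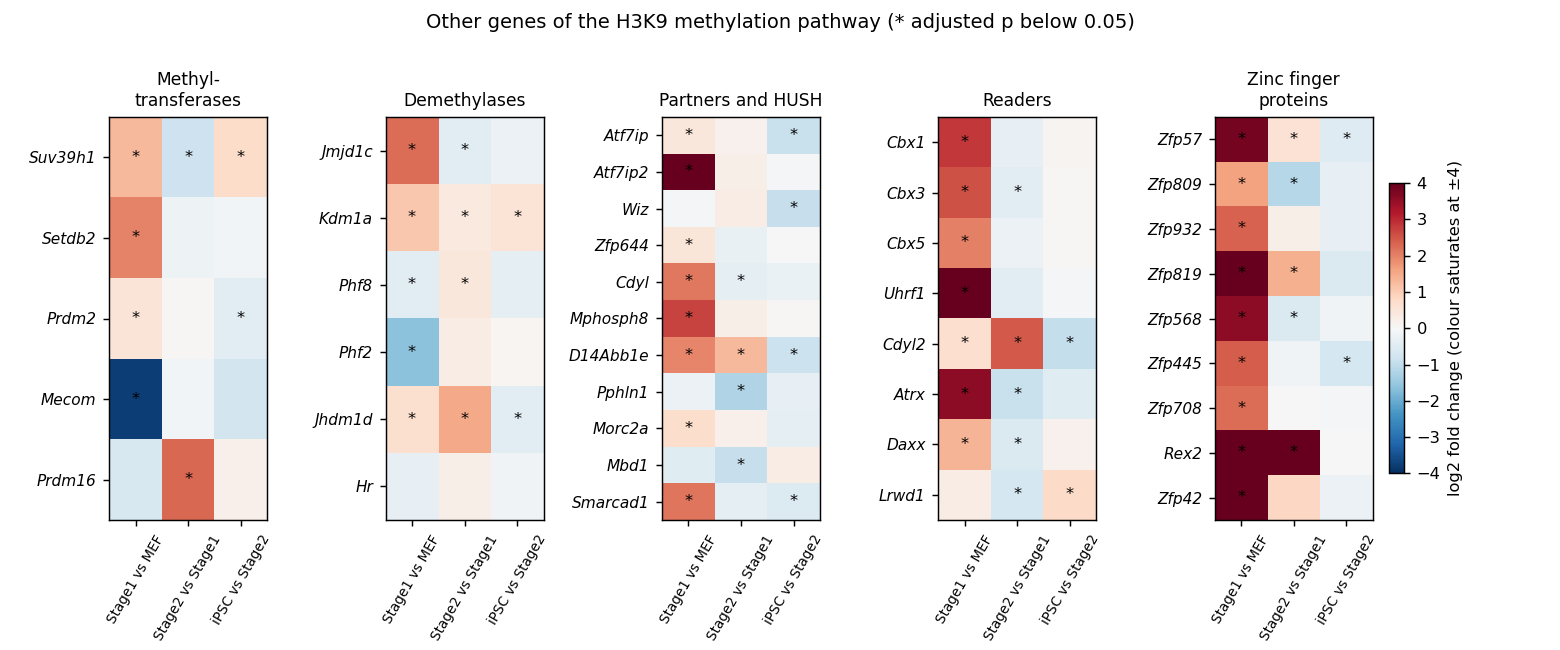
Log2 fold change (colour, red higher and blue lower, saturating at 4 in either direction) of the tested genes of 5 pathway lists in 3 comparisons, with an asterisk for an adjusted p below 0.05. The first column of each block is mostly red, with Mecom and Phf2 in blue (-3.77 and -1.64), and the Stage2 and iPSC columns hold fewer and smaller differences, apart from such genes as Cdyl2 (2.46) and Jhdm1d (1.52) at Stage2.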

How the data were processed

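Per the labels' protocols, Illumina libraries were built from RNA extracted with a miRNeasy Mini kit. The deposited files hold whole read counts per gene symbol, which the authors made from reads aligned to mm10. The submitters' processing notes name TopHat2 2.0.9, Bowtie2 2.2.6, SAMtools 0.1.19, HTSeq 0.5.4p3 and DESeq2 1.12.4. The sources used here give neither the strand setting nor the gene annotation. Counts outside genes stayed out of all totals.

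The 12 libraries were fitted together by robust quasi-likelihood with a term per group (edgeR 4.0.16, limma 3.58.1 and statmod 1.5.0 under R 4.3.3). After filterByExpr 14770 of 23420 genes remained, scaled by TMM. Each SE is the size of the log2 fold change divided by the root of its F statistic. Genes were called where the p adjusted after Benjamini and Hochberg was below 0.05. Biological coefficients of variation had a common value of 0.190. The procedure was tested on simulated data.

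CPM per kb used the union of GENCODE M21 exon bases or, as an alternative, the longest RefSeq transcript. Positions are RefSeq GRCm38.p6 gene spans, and upstream sequences come from RefSeq on that build. Centred log2 CPM used a prior count of 2. No pair of replicates agreed within sampling noise.

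The alternatives were RLE scaling, library totals, no filter, DESeq2 1.42.0, a minimum of 1 CPM in 3 libraries, separate fits for each pair of groups, the replicate number as a block, and leaving out each library. The genes and lists were chosen with earlier results of these data known. The text names all 10 genes, genes of the lists, and the 2 nearest profiles per gene. Which list genes are quoted was chosen after their values were seen.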

Additional observations from a re-analysis of the deposited data

How the results depend on the processing

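Of 1140 alternative values of the 10 genes over 6 comparisons, 1081 kept their direction and their side of the threshold, 20 lost a call, 17 gained one and 22 changed sign, all of the 22 in values that were not called. For Stage1, Stage2 and iPSC against MEF, between 8 and 10 genes were called under every alternative, all higher. The main fit called 44.2%, 44.6% and 44.9% of all tested genes higher in these comparisons. At Stage2 against Stage1, 3 higher and 1 lower became 4 and 0 with library totals and 4 and 2 when only those groups were fitted. Over all genes, 3048 higher and 2921 lower of 14770 became 4026 and 1678 of 14770, and 3860 and 3551 of 13446. For iPSC against Stage2, 2 were called, and 4 when only those groups were fitted (1 higher, 3 lower). In that fit 2307 of 13733 tested genes were called higher and 2647 lower. When a library was left out 1 to 2 were called. Without Stage2 replicate 1 or iPSC replicate 1 it was 1, called lower, where 658 of 15335 and 568 of 15334 tested genes were.

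Signs changed with library totals for Setdb1 (0.059) and Kdm3b (0.11) at Stage2 against Stage1, for Setdb1 (0.093) and Ehmt2 (0.042) in iPSC against Stage1, and for Kdm4a in iPSC against Stage2 (-0.039). Setdb1 in iPSC against Stage1 was also 0.0031 with RLE scaling, 0.021 without a filter, 0.0024 with DESeq2 and 0.016 when only those groups were fitted, and -0.061 to 0.032 when a library was left out. Leaving out a library gave -0.045 to 0.060 for Ehmt2 and -0.040 to 0.067 for Kdm4a at Stage2 against Stage1, -0.0014 to 0.12 for Kdm4a in iPSC against Stage1, and -0.15 to 0.00011 for Kdm4c in iPSC against Stage2. The cause was not tested.

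Library totals in place of TMM moved the median log2 fold change of all genes by 0.179 at Stage1, 0.383 at Stage2 and 0.283 in iPSC against MEF, by 0.204 at Stage2 against Stage1, by -0.100 in iPSC against Stage2 and by 0.104 in iPSC against Stage1.

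The labels do not say whether a replicate number marks a shared culture or batch. Deviations of same-numbered libraries of different groups correlated at -0.0675 to 0.197, with 3 of 18 pairs above 0.1. Differently numbered libraries correlated at -0.139 to 0.0829, with 0 of 36 pairs above 0.1. What lies behind this difference was not tested. With the replicate block, 9 genes were called in each comparison with MEF, 4 at Stage2 against Stage1 and 2 in iPSC against Stage2. In iPSC against Stage1 3 were called, where Kdm3a was lost (adjusted p = 0.0527). Of 14770 tested genes the block fit called 6500, 6580 and 6625 higher at Stage1, Stage2 and iPSC against MEF. It called 2975 higher and 2824 lower at Stage2 against Stage1. In iPSC it called 1228 higher and 1197 lower against Stage2, and 3075 and 2585 against Stage1. Depth limits Suv39h2 in MEF most, where its 3 libraries held 36, 40 and 49 reads.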

Other observations

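Genes known from mouse embryonic stem cells as silenced by Ehmt2 or as bound by Kdm3a or Kdm4c were read in the same fit, as values without explanation. The 7 Mage-a genes, X-linked genes silenced by Ehmt2 in embryonic stem cells, were not tested in the main fit, because their counts were too low. In the alternatives other than leaving out a library, at most 1 was called higher than MEF at Stage1 and at most 2 in iPSC. Their summed reads over 3 libraries were 0 in MEF, 22 at Stage1, 13 at Stage2 and 27 in iPSC. Of 11 germline genes bound by complexes of E2f6, Max and Ehmt1 or Ehmt2, 10 were tested. Of these, 9 were called higher at Stage1 than in MEF and 9 higher at Stage2 than at Stage1, where 44.2% and 20.6% of all tested genes were. With only the MEF and Stage1 libraries fitted, 5 were called higher at Stage1, where 5171 of 13315 tested genes were. Dazl, Mael and Tuba3a did not pass the filter in that fit, and Sycp3 was not called. Of the exon bases of Sycp3, 52.2% are shared with Chpt1 on the opposite strand. Smc1b, a meiotic cohesin gene, had 118, 114 and 129.5 CPM at Stage2, against 1.66, 2.86 and 2.61 CPM at Stage1 (log2 fold change 5.68 ± 0.33, edgeR adjusted p = 2.8e-09). Ddx4, the germ cell helicase Vasa, had 47.4, 62.1 and 51.4 CPM in iPSC, against 20.4, 19.996 and 17.4 CPM at Stage2 (1.48 ± 0.23, adjusted p = 0.000514). In iPSC, 4 of the 10 were called higher than at Stage2 and 2 lower, against 9.21% and 8.87% of all tested genes. The 2 lower genes were Smc1b (-0.74 ± 0.25, adjusted p = 0.0492) and Tuba3a (-1.28 ± 0.35, adjusted p = 0.0204). Both were lost when any Stage2 or iPSC library was left out (adjusted p up to 0.185 and 0.0957), and Smc1b also without Stage1 replicate 2 or 3, without a filter and with the replicate block (adjusted p = 0.0575).

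Of 4 genes described as Kdm3a or Kdm4c targets in mouse embryonic stem cells, Tcl1, Tfcp2l1, Zfp57 and Nanog, 4 were called higher at Stage1 than in MEF and 2 higher at Stage2 than at Stage1, where 44.2% and 20.6% of all tested genes were. Tcl1 had 47.9, 43.6 and 37.0 CPM at Stage2, against 11.9, 11.4 and 10.2 CPM at Stage1 (1.94 ± 0.20, adjusted p = 9.79e-07). In iPSC, 1 was called lower than at Stage2, Zfp57, where 8.87% of all tested genes were, and its call was lost without Stage2 replicate 1 or 2 or iPSC replicate 1 or 3. Of 14 hypoxia-inducible genes, a response in which Kdm3a and Kdm4b are known members, 3 were called higher and 10 lower at Stage1 than in MEF, against 44.2% and 36.1% of all tested genes. At Stage2, 10 were called higher than at Stage1 and 4 were not called, where 20.6% of all tested genes were called higher. Vegfa, the angiogenic growth factor gene, had 224, 228 and 236 CPM at Stage2, against 47.9, 23.3 and 27.8 CPM at Stage1 (2.79 ± 0.20, adjusted p = 2.2e-08). Egln3, an oxygen-sensing prolyl hydroxylase gene, had 98.6, 93.3 and 95.2 CPM at Stage2, against 27.9, 12.2 and 12.7 CPM at Stage1 (2.43 ± 0.27, adjusted p = 2.72e-06). In iPSC, 2 of the 14 were called lower than at Stage2, among them Vegfa (-0.91 ± 0.19, adjusted p = 0.00423). With only those groups fitted 5 were, where 2647 of all 13733 genes tested in that fit were called lower. The 1 called higher in the main fit was Ldha (0.55 ± 0.17, adjusted p = 0.0377). Its call was lost in 9 of 19 alternatives, among them leaving out any Stage2 or iPSC library or MEF replicate 1 (adjusted p up to 0.119). The main fit called 9.21% of all tested genes higher and 8.87% lower there. Kdm3a and Kdm4b rose at Stage2 beside these genes. At Stage1 against MEF both were called higher (0.93 and 0.67), where 10 of the 14 were called lower. In iPSC against Stage2 Kdm3a was called lower (-0.70) and Kdm4b was not called, where 11 of the 14 were not called. The relation was not tested.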
